A study of Mus musculus with 18 samples.

Results

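B16F10 melanomas that had received 1 intratumoral dose of 100 µg of the free STING agonist CDN2 were compared with tumors that had received 1 dose of PBS, over every gene with enough reads to test. The comparison rests on 4 of the 18 tumors of the series, chosen by their titles: 2 titled CL656 with 100 ug and 2 titled PBS with 1 dose. CDN2, titled CL656, is the synthetic cyclic dinucleotide cAIM(PS)2 Difluor. In both groups B16F10 cells, a mouse melanoma line, had been implanted under the skin of the right flank of C57BL/6 mice (female and 5 to 6 weeks old when purchased), and the tumor was taken 24 h after the dose. The 100 µg amount appears in the titles, and the treatment text of the labels describes free CDN2 at 20 µg. The 2 tumors given 1 dose of 20 µg serve below as the nearest group of the same agent. The groups hold 2 tumors each, given as biological replicates. What the p-values measure is the spread between such tumors, estimated over 8 groups of the series and not over these groups alone. The RNA came from whole tumor pieces, so fewer cells of a type and less RNA per cell cannot be told apart anywhere in these data.

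STING (encoded by Tmem173) is a membrane protein of the endoplasmic reticulum that binds cyclic dinucleotides, including the one that cGAS makes on meeting DNA in the cytosol. Bound STING recruits the kinase TBK1, which activates IRF3 and, with NF-κB, turns on Ifnb1 and other cytokine genes. Secreted interferon-β then acts through its receptor and the ISGF3 factor, which holds STAT2 and IRF9, on interferon-stimulated genes, and in tumors this sequence is known for drawing in T cells through CXCR3 chemokines.

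The 4 libraries held 39213208 to 48388504 expected counts, within the 21608895 to 65983630 of the series. Between the 2 tumors of a group, 1150 of 16927 tested genes differed by over 2-fold at 100 µg and 857 with PBS. In the widest of the 8 groups fitted, 2 doses of 20 µg, 4720 genes did, and that group also enters the spread behind each test. Levels of genes are given as CPM, the counts-per-million unit, scaled by TMM. The pigment genes that mark melanoma were abundant in all 4 tumors. Dct stood at 6791 and 6457 CPM with PBS and at 7025 and 7301 at 100 µg, and Pmel at 4596 and 4408 with PBS and at 4630 and 4984 at 100 µg. The pan-leukocyte gene Ptprc was at 15.3 and 21.8 CPM with PBS and 24.3 and 22.4 at 100 µg, so the tumors held leukocytes in both groups.

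A gene was called changed where the Benjamini-Hochberg adjusted p of edgeR's quasi-likelihood test was under 0.05 and the ratio of the groups over 2. By this rule 413 of the 16927 genes (2.44%) differed between 100 µg and PBS, 308 of them higher (1.82%) and 105 lower (0.62%) in the CDN2 tumors. The higher genes moved further, with a median log2 fold change of 2.44 against -1.63 for the lower genes, and 104 higher and 20 lower genes differed by over 8-fold. In 35 of the higher genes each PBS tumor had 3 counts or fewer, as did each 100 µg tumor in 6 of the lower genes. The sizes of their changes are uncertain. The groups did not overlap for any of the 413, as was true of 67.2% of all tested genes. Without overlap, leaving out 1 tumor has little room to reverse a gene's direction, so a kept direction is no added support. Leaving out any 1 of the 4 tumors lowered the count. It was 163 higher and 3 lower without CDN2 (100 µg) replicate 1, 157 and 22 without replicate 2, 80 and 12 without PBS replicate 1, and 79 and 7 without PBS replicate 2. In all 4 of these leave-one-out fits 72 higher and 2 lower genes stayed past the threshold, and the direction of all 413 was the same in each.

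**Figure D1:**
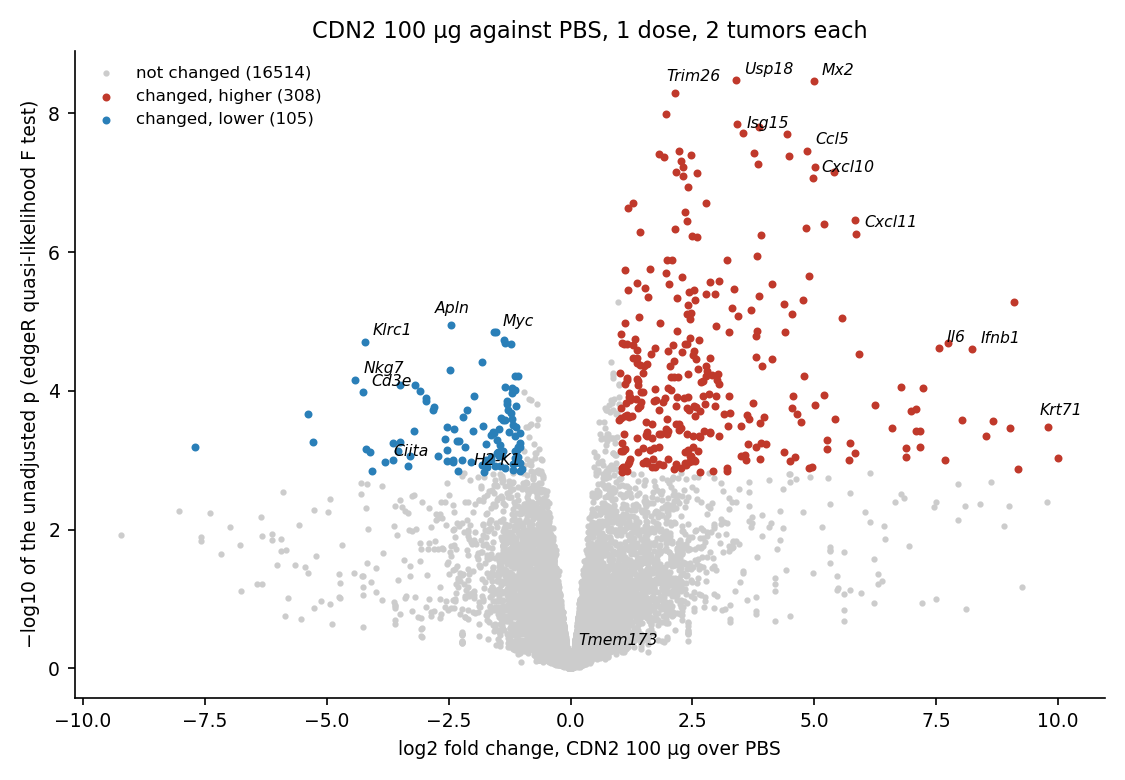
Each point is 1 of 16927 tested genes, with the log2 fold change of CDN2 (100 µg) over PBS on the horizontal axis and -log10 of the unadjusted p on the vertical axis; red and blue mark the 308 higher and 105 lower changed genes. The points with the smallest p lie on the higher side, among them Usp18 and Mx2, and Tmem173 sits at the base near 0.

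Ifnb1, the direct transcriptional output of STING, was close to silent with PBS and abundant at 100 µg. Its level was 0.133 and 0.12 CPM in the PBS tumors and 40.6 and 36.8 in the CDN2 tumors, a log2 fold change of 8.23 ± 1.18 (SE; adjusted p = 0.00391). Both CDN2 tumors lay far above both PBS tumors. Among the 15 tested interferon and receptor genes 3 rose and none fell (8 higher and 0 lower at an unadjusted edgeR p under 0.05, and 3 and 0 by DESeq2). The list's median log2 fold change was 3.13, or 0.82 with the 7 genes at the counting floor set to their lower bounds, against -0.004 over all genes. Ifna2 and Ifna4, which encode interferon-α subtypes, had no read in either PBS tumor and stood at 1.33 and 1.6 and at 1.45 and 0.874 CPM, at least 23.2-fold and 18.5-fold higher against a floor of 3 counts per PBS library. The Ifna genes are near-identical copies whose reads can be split between them, so which subtype rose is uncertain. Ifng, the type II interferon made by T and NK cells, was at 0.949 and 1.56 CPM with PBS and 0.616 and 2.8 at 100 µg. The CDN2 tumors spanned the PBS tumors and the test was not passed (log2 fold change 0.44 ± 0.85, adjusted p = 0.898). Ifnb1 missed the threshold when either PBS tumor was left out. Over the leave-one-out fits its adjusted p ran from 0.0131 to 0.0921 while its log2 fold change stayed between 8.15 and 8.30. Ifna2 and Ifna4 missed it in all 4, at 0.0739 to 0.16 and 0.0544 to 0.145.

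Of the 20 genes of the STING pathway 2 rose and none fell (7 higher and 0 lower at an unadjusted edgeR p under 0.05, and 3 and 0 by DESeq2). Cgas, the DNA sensor upstream of STING, rose from 11.3 and 11 to 30.5 and 31.8 CPM (2.8-fold, adjusted p = 0.00689), and Trex1, the exonuclease that degrades cytosolic DNA, from 5.98 and 5.28 to 34.7 and 34.1 CPM (6.1-fold, adjusted p = 0.00622). Neither was called without PBS replicate 1 (adjusted p = 0.09 for Cgas and 0.0834 for Trex1) or without PBS replicate 2 (0.105 and 0.108). Tmem173 itself was at 55.2 and 56.5 CPM with PBS and 52.2 and 54.8 at 100 µg (log2 fold change -0.062 ± 0.16, adjusted p = 0.924).

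The promoters of some of the higher genes carried a shared run of letters. The 4 windows below are the 250 bases before the transcription start of the 3 higher genes with the smallest p whose window held it, and of Cxcl10, the CXCR3 ligand described further on. They come from RefSeq, build GRCm38.p6, and read 5′ to 3′ on the gene's strand. Capitals mark GAAA, 2 bases of any kind and GAAA, or the reverse complement. These letters are the core of the interferon-stimulated response element (ISRE) that ISGF3 and IRF proteins bind, and overlapping matches are joined.
Trim26, chr17:36836896-36837145, forward strand: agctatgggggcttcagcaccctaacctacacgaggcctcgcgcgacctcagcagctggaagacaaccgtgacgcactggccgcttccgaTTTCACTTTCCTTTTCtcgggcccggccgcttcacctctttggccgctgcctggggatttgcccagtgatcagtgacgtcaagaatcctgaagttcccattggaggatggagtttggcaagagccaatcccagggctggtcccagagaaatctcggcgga
Isg15, chr4:156200819-156201068, reverse strand: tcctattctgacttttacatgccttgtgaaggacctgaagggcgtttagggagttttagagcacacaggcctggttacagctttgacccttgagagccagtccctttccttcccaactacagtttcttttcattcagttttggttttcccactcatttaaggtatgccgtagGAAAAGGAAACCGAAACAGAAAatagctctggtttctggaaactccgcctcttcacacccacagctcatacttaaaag
Ifit3, chr19:34583279-34583528, forward strand: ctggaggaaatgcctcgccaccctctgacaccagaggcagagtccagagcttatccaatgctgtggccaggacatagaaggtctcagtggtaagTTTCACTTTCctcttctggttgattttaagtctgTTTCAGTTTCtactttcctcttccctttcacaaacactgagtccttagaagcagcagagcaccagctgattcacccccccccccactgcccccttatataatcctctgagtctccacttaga
Cxcl10, chr5:92348890-92349139, reverse strand: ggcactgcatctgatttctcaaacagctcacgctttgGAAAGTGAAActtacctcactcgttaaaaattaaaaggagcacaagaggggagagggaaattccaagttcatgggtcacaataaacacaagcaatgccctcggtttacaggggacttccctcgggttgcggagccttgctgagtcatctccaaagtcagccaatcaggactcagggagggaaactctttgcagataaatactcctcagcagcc
Isg15 held 3 overlapping matches, Trim26 2 overlapping ones, Ifit3 2 separate ones and Cxcl10 1. Counted over windows of 300 bases (250 before to 50 after the start, both strands), the ISRE letters were present at 49 of 227 higher genes with a window (21.6%) and at 4 of 80 lower genes. Among all 11883 tested genes with a window 474 (3.99%) held them, as did 3.44% of all 32851 windows. The NF-κB letters, GGG, 2 bases of any kind and TTTCC, were present at 15 of the higher (6.61%), 4 of the lower and 2.08% of the tested genes, and in 1.63% of all windows. These are counts of letters and no test was made of them.

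By number, interferon-stimulated genes with antiviral roles were the list with the most changed members, and that list was also the longest. Over all tested genes 1.82% were called higher. Of 52 tested members 32 rose and none fell (37 higher and 1 lower at an unadjusted edgeR p under 0.05, and 35 and 0 by DESeq2). Of the 52, 49 had a log2 fold change above 0, with a median of 1.65. Usp18, which removes ISG15 from proteins and damps the interferon receptor, was at 21.9 and 20.9 CPM with PBS and 216 and 232 at 100 µg (10.5-fold, log2 fold change 3.39 ± 0.22, adjusted p = 2.91e-05). Isg15, the ubiquitin-like modifier whose promoter is shown above, went from 30.8 and 31.7 to 334 and 328 CPM (10.6-fold, adjusted p = 4.18e-05). Mx2, a dynamin-like GTPase that restricts viruses, went from 5.48 and 4.34 to 165 and 146 CPM (31.7-fold, adjusted p = 2.91e-05). The annotation types it as a polymorphic pseudogene in the reference strain. For each of the 3 the tumors of a group lay close together and the groups were far apart.

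Ifih1, the RNA sensor MDA5, rose from 34.6 and 34.3 to 521 and 418 CPM (log2 fold change 3.77 ± 0.30, adjusted p = 4.9e-05). Cmpk2, a mitochondrial nucleotide kinase, rose from 48.6 and 45.4 to 635 and 737 CPM (log2 fold change 3.87 ± 0.29) and Ifit3, an RNA-binding inhibitor of translation, from 67 and 69.8 to 1599 and 1357 (log2 fold change 4.43 ± 0.34). Oas1b, of the family that makes the activator of RNase L, rose from 3.51 and 3.4 to 41.4 and 38.6 CPM (log2 fold change 3.53 ± 0.27). Ifit3 can share reads with Ifit3b and the Oas1 genes with each other, so their separate values are uncertain. The members with the largest values, picked after they were seen, were Ifit1 (log2 fold change 5.83 ± 0.58), Oasl1 (5.41 ± 0.46) and Rsad2 (5.01 ± 0.42), the last at 105 and 89.2 CPM with PBS and 3023 and 3237 at 100 µg. Not all members followed. Bst2, which tethers budding virus to the cell, was at 213 and 236 CPM with PBS and 108 and 140.2 at 100 µg (log2 fold change -0.86, adjusted p = 0.107). Zbp1, a sensor of Z-form nucleic acid, had a log2 fold change of 0.082 and Ifitm3, which blocks viral entry, one of 0.10. Usp18, Isg15, Mx2, Ifih1, Cmpk2, Ifit3 and Oas1b kept their calls in all leave-one-out fits, while the list's count fell from 32 to 25 without CDN2 (100 µg) replicate 1, 23 without replicate 2 and 20 when either PBS tumor was left out. Promoter windows with the ISRE letters were found at 14 of 23 changed members (60.9%) and at 7 of 16 members that were not called (43.8%).

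**Figure D2:**
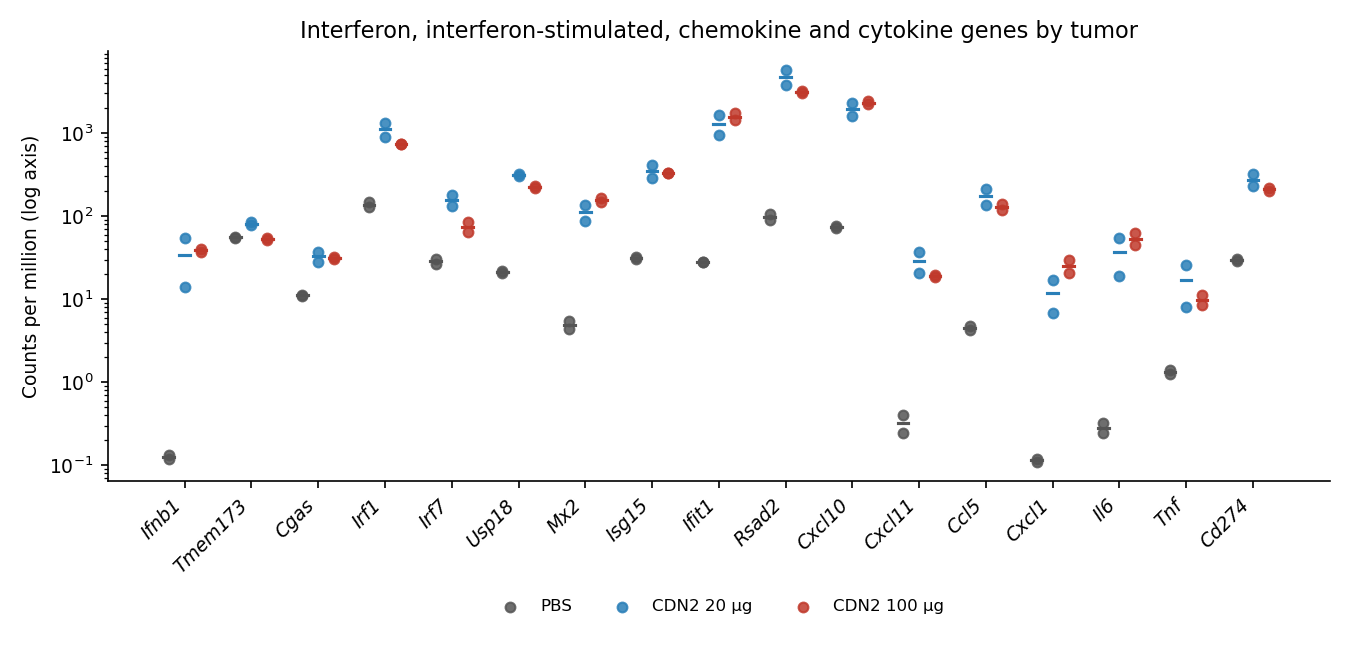
Points are single tumors and short bars the mean of 2, in CPM on a log axis, for PBS (grey), CDN2 20 µg (blue) and CDN2 100 µg (red), all after 1 dose. Both CDN2 groups lie above PBS for Ifnb1, the interferon-stimulated genes, the chemokines, Il6 and Cd274, whereas the 100 µg tumors lie near PBS for Tmem173.

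The factors that carry the interferon signal did not all rise. Of 19 genes listed as IRF and STAT factors 5 rose and 1 fell. Their log2 fold changes were above 0 for 10 and below 0 for 9, with a median of 0.0241. Stat2 and Irf9, partners in ISGF3, rose from 31.2 and 29.5 to 159 and 141 CPM (4.95-fold, adjusted p = 5.87e-05) and from 38.5 and 36.9 to 85.7 and 84.3 CPM (2.25-fold, adjusted p = 0.000142). Irf1 rose from 128 and 146 to 731 and 746 CPM (5.4-fold, adjusted p = 0.0011). Irf7, the amplifier of interferon-α genes, rose from 26.5 and 30.4 to 64.1 and 84.2 (2.61-fold, adjusted p = 0.0133) and Irf2 2.68-fold (adjusted p = 0.00566). Stat2, Irf9 and Irf1 kept their calls whichever tumor was left out. Irf2 was not called without PBS replicate 1 or 2 (adjusted p 0.0364 to 0.101 over the 4 fits), nor Irf7 without these or CDN2 (100 µg) replicate 2 (0.0329 to 0.167). The listed gene that fell was Ciita, which is itself neither an IRF nor a STAT and is described with antigen presentation.

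Among PARP, TRIM and Schlafen genes 14 of 24 rose and none fell (21 higher and 0 lower at an unadjusted edgeR p under 0.05, and 16 and 0 by DESeq2). All 24 had a log2 fold change above 0, and the median was 1.56. Trim26 went from 43.8 and 43 to 205 and 177 CPM (4.4-fold, adjusted p = 2.91e-05). Trim21, a cytosolic antibody receptor, rose 4.7-fold, Trim25, a ubiquitin ligase of the RIG-I pathway, 3.53-fold and Dtx3l, the partner of PARP9, 3.8-fold. All 4 were called in each leave-one-out fit, in which the list's count was 9 and 8 without CDN2 (100 µg) replicates 1 and 2 and 6 when either PBS tumor was left out. Guanylate-binding proteins and immunity-related GTPases, which attack vacuoles of intracellular pathogens, moved less as a list, with 2 of 20 higher, 1 lower (5 and 4 at an unadjusted edgeR p under 0.05, and 4 and 2 by DESeq2) and a median log2 fold change of 0.653. Gbp5 rose from 19.8 and 22.8 to 155 and 179 CPM (7.81-fold, adjusted p = 0.00114) and kept its call throughout. Irgm2 rose 2.16-fold (adjusted p = 0.0319). Gbp2b was at 0.662 and 1.94 CPM with PBS and 0.0986 and 0.05 at 100 µg (log2 fold change -4.08 ± 0.99, adjusted p = 0.0491). Neither was called in any leave-one-out fit (adjusted p 0.103 to 0.265 for Irgm2 and 0.0886 to 0.351 for Gbp2b), nor Gbp2b with RLE factors, another scaling (0.0504). Genes of the PYHIN family of DNA-binding proteins, looked up after the calls had been seen, included Ifi205 (log2 fold change 3.83 ± 0.54), Ifi206 (2.96 ± 0.55) and Ifi208 (3.81 ± 0.59), close copies of each other whose reads may be shared. All 3 missed the threshold in at least 1 leave-one-out fit, with adjusted p up to 0.0644, 0.165 and 0.0922.

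Some chemokines that recruit T cells and monocytes rose. Of the 4 genes of the CXCR3 axis 2 rose and none fell (3 higher and 1 lower at an unadjusted edgeR p under 0.05, and 2 and 0 by DESeq2). The receptor gene Cxcr3 had a log2 fold change of -1.01. It was called lower with no filter on low counts and with the PBS tumors of both dose numbers pooled. Cxcl10 went from 72.2 and 76 to 2421 and 2249 CPM (31.5-fold, log2 fold change 4.98 ± 0.43, adjusted p = 6.13e-05) and Cxcl11 from 0.243 and 0.4 to 18.4 and 19.5 CPM (58.1-fold, log2 fold change 5.86 ± 0.60, adjusted p = 0.000256). Cxcl9, the third ligand of the receptor, was at 42.3 and 53.4 CPM with PBS and 81.3 and 94.2 at 100 µg. The CDN2 tumors were both higher, but the difference missed the threshold (1.83-fold, adjusted p = 0.275). Of 26 CC chemokine and receptor genes 7 rose and 1 fell, around a median log2 fold change of 0.52. Ccl5, an attractant of T cells and monocytes, rose from 4.24 and 4.8 to 142 and 119 CPM (28.8-fold, adjusted p = 4.9e-05). The monocyte attractants Ccl2 and Ccl7 rose from 12.6 and 11.8 to 139 and 124 CPM (10.7-fold, adjusted p = 0.00189) and from 8.83 and 9.29 to 75.4 and 74.8 (8.29-fold, adjusted p = 0.000888). Ccrl2, an atypical receptor that presents chemerin, rose 21.1-fold (adjusted p = 0.00274). Ccr2, the receptor for Ccl2 and Ccl7, went the other way, from 6.45 and 10.8 to 0.936 and 1.27 CPM (log2 fold change -2.96 ± 0.54, adjusted p = 0.0116). Cxcl10, Cxcl11, Ccl5 and Ccl7 kept their calls in each leave-one-out fit. Ccl2 lost it without PBS replicate 2 (adjusted p 0.00789 to 0.0506 over the 4 fits) and Ccrl2 when either PBS tumor was left out (0.0102 to 0.0669). Ccr2 kept it in 1 of the 4, without PBS replicate 1 (0.0383 to 0.139). The list's higher count was 5 when either 100 µg tumor was left out, 3 without PBS replicate 1 and 2 without PBS replicate 2.

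Attractants of neutrophils, which act on CXCR2, were also higher. Of 12 tested members of that list 3 rose and none fell (8 higher and 0 lower at an unadjusted edgeR p under 0.05, and 6 and 0 by DESeq2). All 12 had a log2 fold change above 0, and the median was 3.12. Cxcl1 went from 0.11 and 0.12 to 29.7 and 20.6 CPM (log2 fold change 7.73 ± 1.14, adjusted p = 0.00351). Cxcl2 went from 0.486 and 0.36 to 15.1 and 17.3 (5.26 ± 1.11, adjusted p = 0.0255) and Cxcl5 from 0.309 and 0.36 to 8.48 and 5.62 (4.38 ± 0.98, adjusted p = 0.0334). Cxcl1 lost its call when either PBS tumor was left out (adjusted p 0.0099 to 0.0837), and Cxcl2 (0.0819 to 0.26) and Cxcl5 (0.0812 to 0.284) in all 4 leave-one-out fits.

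Among 24 inflammatory cytokine genes 9 rose and none fell (16 higher and 3 lower at an unadjusted edgeR p under 0.05, and 15 and 0 by DESeq2), with a median log2 fold change of 2.22. Il6, a cytokine of the acute-phase response, was at 0.243 and 0.32 CPM with PBS and 61.8 and 45.3 at 100 µg (log2 fold change 7.55 ± 1.13, adjusted p = 0.00387). Tnf rose from 1.26 and 1.4 to 8.4 and 11.1 CPM (7.31-fold, adjusted p = 0.0221) and Il27, made by activated myeloid cells, from 0.199 and 0.22 to 7.05 and 8.64 (log2 fold change 5.21 ± 0.92). Tnfsf10, the death ligand TRAIL, rose from 3.84 and 4.66 to 18.8 and 26.5 CPM (5.32-fold, adjusted p = 0.00142) and Tnfsf15 from 0.0883 and 0 to 2.69 and 2.75 (log2 fold change 5.91 ± 0.91). With 4 and 0 counts in the PBS tumors, the size for Tnfsf15 is uncertain, and its leave-one-out log2 fold changes ran from 4.90 to 9.89. Il1b, the inflammasome-processed cytokine, was at 0.927 and 1.22 CPM with PBS and 8.68 and 9.59 at 100 µg. The groups were apart but the adjusted p was 0.0626, and 6 alternative settings, DESeq2 among them, called it. Tnfsf10 alone of these kept its call in every leave-one-out fit. Il6 (adjusted p up to 0.0882) and Il27 (up to 0.149) lost it when either PBS tumor was left out, Tnfsf15 without PBS replicate 2 (0.0749), and Tnf in all 4 (up to 0.221).

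Genes of the NF-κB pathway and its feedback followed, with 11 of 25 higher, none lower (19 higher and 0 lower at an unadjusted edgeR p under 0.05, and 16 and 0 by DESeq2) and a median log2 fold change of 1.44. Tnfaip3, the inhibitor A20, went from 7.35 and 6 to 64.8 and 70.6 CPM (10.2-fold, adjusted p = 0.00105) and Nfkbie, an IκB protein, from 10.6 and 9.93 to 46.7 and 46.5 (4.54-fold, adjusted p = 0.00274). The kinase gene Ripk2 rose 4.22-fold and the inhibitor of apoptosis Birc3 4.62-fold. Among 25 pattern recognition receptors and adaptors 3 rose and 1 fell around a median log2 fold change of 0.0084. Tlr2, a receptor for bacterial lipoproteins, rose 5.56-fold, Tlr3, for double-stranded RNA, 4.13-fold, and the adaptor Myd88 2.28-fold. Tlr12 was 3.3-fold lower. Tnfaip3, Ripk2 and Tlr2 were called in each leave-one-out fit. Nfkbie was not called without PBS replicate 2 (adjusted p = 0.0626), nor Birc3 and Tlr3 when either PBS tumor was left out (up to 0.109 and 0.102). Myd88 (0.118 to 0.295) and Tlr12 (0.134 to 0.303) were called in none of the 4. The lists kept 4, 6, 3 and 2 NF-κB calls and 2, 2, 1 and 1 receptor calls without CDN2 (100 µg) replicates 1 and 2 and PBS replicates 1 and 2.

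Cd274, which encodes the checkpoint ligand PD-L1, was at 29.2 and 30.7 CPM with PBS and 202 and 216 at 100 µg (6.99-fold, log2 fold change 2.81 ± 0.46, adjusted p = 0.00652). Cd80, a ligand of both CD28 and CTLA-4, rose from 0.331 and 0.42 to 1.87 and 2.47 CPM (5.74-fold, adjusted p = 0.0236). They were the changed members of the 13 checkpoint genes. Ido1, the tryptophan-degrading enzyme, had 3 counts in each PBS tumor and was at 0.123 and 0.5 CPM at 100 µg, with no call (adjusted p = 0.396). Cd274 lost its call when either PBS tumor was left out (adjusted p 0.0282 to 0.102 over the 4 fits) and Cd80 in all 4 leave-one-out fits (0.0739 to 0.241).

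Some antigen presentation genes fell at 100 µg, against the direction of the interferon-stimulated genes. Of 23 genes of the MHC class I route 4 fell and none rose (0 higher and 13 lower at an unadjusted edgeR p under 0.05, and 0 and 8 by DESeq2), and the median log2 fold change was -0.93. H2-K1 and H2-D1 encode the classical class I heavy chains. H2-K1 stood at 805 and 879.9 CPM with PBS and at 214 and 291 at 100 µg (3.34-fold lower, adjusted p = 0.0281), and H2-D1 at 1109 and 1230 with PBS and at 366 and 455 at 100 µg (2.85-fold lower, adjusted p = 0.0339). The immunoproteasome subunits Psmb8 and Psmb9, which shape peptides for class I, were lower as well. Psmb8 fell from 152 and 179 to 23.5 and 34 CPM (log2 fold change -2.53 ± 0.56, adjusted p = 0.0326) and Psmb9 from 90.6 and 102 to 16.3 and 20.1 (log2 fold change -2.40 ± 0.56, adjusted p = 0.0409). The groups were well apart for all 4. B2m, the light chain shared by class I molecules and picked here after its values were seen, was at 1205 and 1328 CPM with PBS and 553 and 702 at 100 µg and was not called (adjusted p = 0.102). H2-K2, outside the list, typed as a transcribed pseudogene by the annotation and picked after its values were seen, rose from 0.287 and 0.32 to 5.05 and 4.15 CPM (15-fold, adjusted p = 0.00026) and was called in all 4 leave-one-out fits. H2 genes share stretches of sequence, so reads may be split among them, H2-K1 and H2-K2 included.

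The class II route gave 3 of 14 lower, none higher (0 higher and 8 lower at an unadjusted edgeR p under 0.05, and 0 and 3 by DESeq2), no member above 0 and a median log2 fold change of -2.05. Ciita, the master regulator of class II genes, went from 9.71 and 11.6 to 0.444 and 1.07 CPM (log2 fold change -3.81 ± 0.89, adjusted p = 0.041). H2-DMa and H2-DMb1, the chains of the peptide-exchange factor, went from 24.3 and 29.5 to 1.9 and 2.85 CPM (-3.50 ± 0.75, adjusted p = 0.0269) and from 62.4 and 68.6 to 7.71 and 10.8 (-2.82 ± 0.53, adjusted p = 0.0137). Cd74, the invariant chain, added after its values were seen, was at 166 and 215 CPM with PBS and 41.4 and 50.3 at 100 µg, with no call (adjusted p = 0.137). None of the 4 class I and 3 class II calls was made in any of the 4 leave-one-out fits, nor when the PBS tumors of both dose numbers were pooled. With PBS pooled the class I median was -0.16, with 10 genes above 0 and 13 below, the class II median was -1.33, and the log2 fold change of H2-K1 was -0.90. Over the leave-one-out fits the log2 fold change of H2-K1 stayed between -1.98 and -1.54 with an adjusted p of 0.114 to 0.261, and that of Ciita between -4.58 and -3.31 with 0.149 to 0.328. Markers of T cells, NK cells and monocytes were lower in the same tumors, with the values given next, and their part in the class I and class II values was not tested.

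Several transcripts that define T cells fell close to the counting floor at 100 µg. Of 31 T cell genes 8 fell and none rose (1 higher and 15 lower at an unadjusted edgeR p under 0.05, and 0 and 11 by DESeq2), with a median log2 fold change of -1.18. Cd3e, a chain of the T cell receptor complex, was at 0.972 and 1.52 CPM with PBS (44 and 76 counts) and at 0.0246 and 0.0999 at 100 µg (1 and 4 counts), a log2 fold change of -4.27 ± 0.75 (adjusted p = 0.0101). Cd8a, the co-receptor of cytotoxic T cells, was at 2.43 and 2.68 CPM with PBS and 0 and 0.275 at 100 µg (adjusted p = 0.0315). Cd5, a surface antigen of T cells, and Tbx21, the T-bet factor of type 1 responses, had 3 counts or fewer in each CDN2 tumor, at least 14.4-fold and 8.05-fold lower. Tcf7, a factor of naive and stem-like T cells, stayed well above the floor. It fell from 16.3 and 16.4 to 8.03 and 7 CPM (2.18-fold lower, adjusted p = 0.0127), and which cells carried it was not tested. Cd4 did not separate the groups, at 0.883 and 1.36 CPM with PBS and 0.961 and 0.725 at 100 µg (log2 fold change -0.41 ± 0.78, adjusted p = 0.895).

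NK and cytotoxic genes gave 3 of 21 lower, none higher (0 higher and 9 lower at an unadjusted edgeR p under 0.05, and 0 and 5 by DESeq2). Their median log2 fold change was -2.11, or -1.25 with 8 genes at the counting floor set to their bounds. Klrc1, the NKG2A inhibitory receptor, had 3 counts in each CDN2 tumor against 1.06 and 1.82 CPM with PBS, at least 19.3-fold lower (adjusted p = 0.0035). Nkg7, a granule protein, fell from 2.27 and 3.16 to 0.0246 and 0.225 CPM (log2 fold change -4.42 ± 0.74, adjusted p = 0.00766). Prf1, the pore-forming perforin, fell from 3.44 and 3.82 to 0.32 and 0.475 (-3.18 ± 0.55, adjusted p = 0.00864). Summed over the NK list, the level was 19.3 and 24.5 CPM with PBS and 5.47 and 8.62 at 100 µg, and over the T cell list 61.4 and 70.3 with PBS and 44.4 and 46.7 at 100 µg. Further lymphocyte genes with low CDN2 values, picked from the calls, were Tox, a factor of exhausted T cells, at least 8.54-fold lower, Il2rb, the β chain of the IL-2 receptor (5.97-fold lower), Cxcr6, a receptor of tissue-resident T cells (11.7-fold lower), and Ikzf3, the lymphoid factor Aiolos (9.32-fold lower). These 4 were called in no leave-one-out fit. Leaving out 1 tumor removed most of these calls. With the PBS tumors of both dose numbers pooled none of the T cell and NK calls was made, at median log2 fold changes of -0.74 and -2.11. No T cell gene passed without CDN2 (100 µg) replicate 1 or PBS replicate 2, and 2 did without CDN2 (100 µg) replicate 2 or PBS replicate 1. The NK calls numbered 0, 2, 2 and 1 without CDN2 (100 µg) replicates 1 and 2 and PBS replicates 1 and 2. Over these fits the adjusted p ran from 0.0405 to 0.121 for Cd3e (log2 fold change -5.51 to -3.61), 0.0262 to 0.191 for Cd8a, 0.0814 to 0.149 for Tcf7, 0.019 to 0.0802 for Nkg7 and 0.0547 to 0.116 for Prf1. Klrc1 passed except without CDN2 (100 µg) replicate 1 (0.0512).

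**Figure D3:**
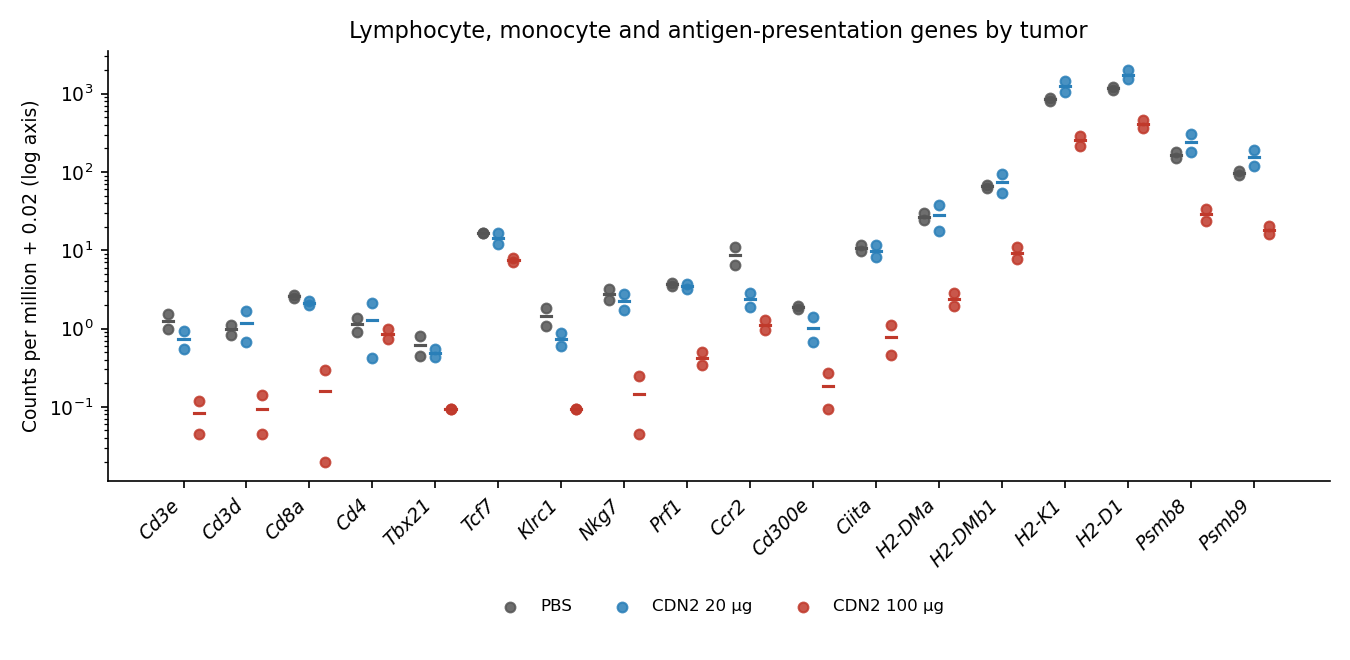
Points are single tumors and short bars the mean of 2, in CPM with 0.02 added, on a log axis, for PBS (grey), CDN2 20 µg (blue) and CDN2 100 µg (red), all after 1 dose. The 100 µg tumors lie below both PBS tumors for every gene drawn except Cd4, and below both 20 µg tumors for every gene except Cd4.

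Monocyte genes gave 5 of 14 lower, none higher (0 higher and 7 lower at an unadjusted edgeR p under 0.05, and 0 and 5 by DESeq2), with a median log2 fold change of -0.65. Cd300e, an activating receptor of monocytes, went from 1.77 and 1.94 to 0.0739 and 0.25 CPM (log2 fold change -3.50 ± 0.60, adjusted p = 0.00859). Ccr2 was described above, and the others were Cx3cr1, the fractalkine receptor (4.67-fold lower, adjusted p = 0.0398), Spn, the sialophorin CD43 (5.78-fold lower, adjusted p = 0.0401), and Itgal, the LFA-1 α chain that lymphocytes also carry (adjusted p = 0.0436, chosen after its values were seen). Their number was 0, 1, 1 and 0 without CDN2 (100 µg) replicates 1 and 2 and PBS replicates 1 and 2, with adjusted p of 0.0246 to 0.104 for Cd300e, 0.0967 to 0.344 for Cx3cr1 and 0.156 to 0.296 for Spn. With the PBS tumors of both dose numbers pooled 1 monocyte gene, Ccr2, was called lower.

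The other myeloid lists held few calls. None of 24 macrophage genes was called (1 higher and 1 lower at an unadjusted edgeR p under 0.05, and 0 and 0 by DESeq2). Adgre1, the F4/80 antigen, was at 18.5 and 27.9 CPM with PBS and 23.3 and 18.7 at 100 µg. None of 19 dendritic cell genes was called (1 higher and 6 lower at an unadjusted edgeR p under 0.05, and 0 and 1 by DESeq2). Xcr1, the receptor of cross-presenting dendritic cells, was at 0.751 and 0.919 CPM with PBS and 0.172 and 0.125 at 100 µg, with the groups apart and an adjusted p of 0.215. Batf3, their lineage factor, was at 1.19 and 1.78 CPM with PBS and 1.01 and 1.7 at 100 µg (adjusted p = 0.956). Of 21 neutrophil genes 1 rose, Acod1, which makes itaconate in activated myeloid cells, from 3.91 and 3.36 to 46.9 and 60.4 CPM (14.8-fold, adjusted p = 0.0182), around a list median of 1.72, or 1.24 with 9 genes at the counting floor set to their bounds. At an unadjusted edgeR p under 0.05 the neutrophil list had 6 higher and 3 lower, and by DESeq2 5 and 0. The calprotectin gene S100a8 was at 1.32 and 1.26 CPM with PBS and 3.38 and 3.92 at 100 µg (adjusted p = 0.502). Of 7 mast cell, basophil and eosinophil genes 1 rose, Cpa3, the mast cell carboxypeptidase, 5.33-fold (adjusted p = 0.011). Neither Acod1 nor Cpa3 was called with any 1 tumor left out (adjusted p 0.0584 to 0.215 and 0.055 to 0.16). No B or plasma cell gene of 9 was called (0 higher and 1 lower at an unadjusted edgeR p under 0.05, and 0 and 0 by DESeq2).

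Few genes of the melanocyte lineage were called. Of 19 pigmentation and melanocyte genes 1 fell, Mc1r, the melanocortin receptor, from 306 and 320.4 to 128 and 144 CPM (2.31-fold lower, adjusted p = 0.00917), with a list median of -0.036 (0 higher and 4 lower both at an unadjusted edgeR p under 0.05 and by DESeq2). Tyr, the rate-limiting enzyme of melanin synthesis, was at 778 and 741 CPM with PBS and 791 and 723 at 100 µg. The melanosome antigen Mlana was at 631 and 681 CPM with PBS and 703 and 629 at 100 µg (adjusted p = 0.966). The lineage factor Mitf, added after its values were seen, was at 629.6 and 678 CPM with PBS and 234 and 282 at 100 µg, and Sox10, likewise added, at 588 and 572 with PBS and 235 and 252 at 100 µg. The groups were apart for both, yet neither passed (adjusted p = 0.0951 and 0.0605). Of 35 cell cycle genes 1 fell, Ccnd1, the G1 cyclin D1, from 221 and 213 to 78.4 and 107 CPM (2.35-fold lower, adjusted p = 0.00351). The proliferation marker Mki67 was at 229 and 196 CPM with PBS and 296 and 264 at 100 µg (adjusted p = 0.852). Outside the lists, Myc fell from 62.9 and 62.4 to 19 and 23.3 CPM (2.96-fold lower, adjusted p = 0.00274). Txnip, the glucose-responsive inhibitor of thioredoxin, fell from 113 and 116 to 40.9 and 48.1 CPM (2.58-fold lower, adjusted p = 0.00337). Id2, an inhibitor of helix-loop-helix factors, fell from 73.6 and 76.5 to 32.4 and 39.1 (2.1-fold lower, adjusted p = 0.00711). Ccnd1, Myc and Txnip lost their calls without CDN2 (100 µg) replicate 1 (adjusted p = 0.0513, 0.0512 and 0.056) and in no other leave-one-out fit. Id2 lost it there and when either PBS tumor was left out (up to 0.102), and Mc1r in all 4 (up to 0.118).

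Of the other lower genes with the smallest p, Apln, the ligand of the apelin receptor made by vessel tip cells, was at 27.8 and 19.1 CPM with PBS and 3.33 and 5.25 at 100 µg (log2 fold change -2.45 ± 0.34, adjusted p = 0.00237). Chst12, a chondroitin sulfotransferase, fell from 15.5 and 15.2 to 5.84 and 4.8 CPM (2.88-fold lower, adjusted p = 0.00274). These 2 were the lower genes that passed in each leave-one-out fit. Klhl21, an adaptor of a ubiquitin ligase used in cell division, was 3.52-fold lower, Tns4, a focal adhesion protein, 5.57-fold and Haghl 2.21-fold. Klhl21 lost the call without CDN2 (100 µg) replicate 1 or PBS replicate 2 (adjusted p up to 0.0739), Tns4 without these or PBS replicate 1 (up to 0.0975), and Haghl in all 4 fits (up to 0.0941).

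Stress and cell death genes rose in small numbers. Of 17 genes of the integrated stress and unfolded protein responses 4 rose and none fell (8 higher and 0 lower at an unadjusted edgeR p under 0.05, and 4 and 0 by DESeq2). Ppp1r15a, the GADD34 subunit that restores translation, rose from 20.5 and 20.4 to 158 and 148 CPM (7.48-fold, adjusted p = 0.00701) and Hspa1b, an inducible HSP70, from 25.1 and 14.9 to 121 and 208 (8.22-fold). The stress-induced factor Atf3 rose 5.04-fold and Chac1, which degrades glutathione, 2.32-fold. Of 32 cell death genes 2 rose. Bbc3, the p53 target PUMA, went from 8.12 and 8.47 to 23.4 and 19.4 CPM (2.58-fold, adjusted p = 0.000929) and Casp4, the non-canonical inflammasome caspase, from 4.26 and 5.66 to 19 and 20.7 (3.99-fold, adjusted p = 0.00917). Bbc3 kept its call throughout. Ppp1r15a lost it when either PBS tumor was left out (adjusted p up to 0.109), and Hspa1b, Atf3 and Casp4 also without CDN2 (100 µg) replicate 2 (up to 0.138, 0.136 and 0.144). Chac1 passed in 1 of the 4 fits, without CDN2 (100 µg) replicate 2 (0.0483). Lists of glycolysis and hypoxia (24 genes), sterol synthesis (20), mitochondrially encoded (13) and histone genes (11) had no called member with edgeR. At an unadjusted p under 0.05 they had, in this order, 1 higher and 8 lower, 0 and 3, 0 and 4, and 1 and 1, and DESeq2 called 1 lower, 0, 1 lower and 0.

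The following higher genes, which no list covered, were chosen after their values were seen. Fos, Jun, Junb, Fosb and Egr1, transcription factors induced within minutes of a stimulus, were 6.83-fold, 4.86-fold, 5.09-fold, 8.23-fold and 5.4-fold higher. Fos went from 24 and 25 to 189 and 146 CPM (adjusted p = 0.000124). Tgfb2, a TGF-β ligand, went from 7.62 and 6.6 to 43.8 and 34.9 CPM (5.53-fold, adjusted p = 4.9e-05), Tgfb3 rose 2.18-fold and Bmp2, a ligand of the same superfamily, 9.48-fold. All 3 hyaluronan synthases rose. Has1 went from 0.199 and 0.0999 to 25.9 and 19.1 CPM (log2 fold change 7.23 ± 1.25, adjusted p = 0.00917). Has2 went from 0.442 and 0.759 to 17.4 and 15.8 (4.77 ± 0.61, adjusted p = 0.00128) and Has3 from 1.52 and 1.06 to 8.97 and 6.97 (2.63 ± 0.55, adjusted p = 0.0236). Of 3 further genes whose products bind or cross-link hyaluronan, Tnfaip6 (TSG-6) rose from 2.1 and 2.26 to 30.2 and 26.5 CPM (13-fold, adjusted p = 0.00164), the pentraxin Ptx3 from 2.56 and 2.26 to 113 and 116 (47.5-fold) and the proteoglycan versican, Vcan, from 5.01 and 4.88 to 29.7 and 28.1 (5.84-fold). Fos, Tgfb2, Has2 and Tnfaip6 kept their calls whichever tumor was omitted. Ptx3 lost it without PBS replicate 2 (adjusted p = 0.058) and Tgfb3 without PBS replicate 1 (0.0595). Jun, Junb, Bmp2 and Has1 lost it when either PBS tumor was left out (up to 0.0837, 0.0709, 0.062 and 0.15), and Fosb, Egr1, Has3 and Vcan in all 4 fits (up to 0.229, 0.32, 0.267 and 0.297).

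Vessel and stroma markers held few calls at 100 µg. None of 23 endothelial markers was called (1 higher and 2 lower at an unadjusted edgeR p under 0.05, and 0 and 1 by DESeq2). Pecam1, the CD31 antigen, was at 29.5 and 32.8 CPM with PBS and 30.7 and 43.2 at 100 µg, with overlapping groups (log2 fold change 0.25 ± 0.25, adjusted p = 0.757). Nrarp, Lfng, Efna1 and Pdgfb, genes of Notch signalling or vessels picked from the calls, were lower (log2 fold change -2.41, -2.80, -1.35 and -1.77). Apln, described above, was lower too. With the replicate block Nrarp, Efna1 and Pdgfb were not called. With 1 tumor left out the value for Nrarp ran from -3.82 to -1.71. Of 6 endothelial adhesion genes 1 rose, Selp, which encodes P-selectin, from 0.508 and 0.919 to 3.94 and 5.15 CPM (6.32-fold, adjusted p = 0.0499). Of 21 coagulation genes 1 rose, the prothrombinase Fgl2, 3.19-fold (adjusted p = 0.0455), with 12 higher and 0 lower at an unadjusted edgeR p under 0.05, and 5 and 0 by DESeq2. Neither was called with any 1 tumor left out (adjusted p 0.148 to 0.394 for Selp and 0.173 to 0.38 for Fgl2), nor Selp with RLE factors (0.0504). All 21 coagulation genes had a log2 fold change above 0, with a median of 1.09. None of 25 fibroblast, pericyte and collagen genes passed (10 higher and 0 lower at an unadjusted edgeR p under 0.05, and 3 and 0 by DESeq2). Col1a1, a chain of type I collagen, was at 76.1 and 83.7 CPM with PBS and 154 and 126 at 100 µg (adjusted p = 0.356). Lymphatic markers, metalloproteinases, complement, Fcγ receptor and nerve lists, of 7, 17, 20, 5 and 8 genes, had no called member with edgeR. In the same order 0, 4, 2, 0 and 2 of their genes reached an unadjusted p under 0.05, and DESeq2 called 0, 2, 0, 0 and 1.

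Markers of blood and of tissue next to the tumor differed between the groups as well. Of 6 erythroid genes 5 rose and none fell (5 higher and 0 lower at an unadjusted edgeR p under 0.05, and 5 and 0 by DESeq2). Hbb-bs, an adult β-globin, was at 82.8 and 64.8 CPM with PBS and 479 and 579 at 100 µg (7.16-fold, adjusted p = 0.0106). Alas2, the first enzyme of erythroid heme synthesis, was at 2.01 and 1.66 with PBS and 12.9 and 16.5 at 100 µg (8-fold, adjusted p = 0.00766). The α-globins Hba-a1 and Hba-a2 rose 6.57-fold and 6.57-fold (adjusted p = 0.0109 and 0.00777). The globin genes are near copies of each other. All 19 skeletal muscle genes had a log2 fold change above 0, with a median of 2.07, and none was called (8 higher and 0 lower at an unadjusted edgeR p under 0.05, and 0 and 0 by DESeq2). Their summed level was 130.0 and 222 CPM with PBS and 700.4 and 815 at 100 µg. All 22 keratinocyte genes had one below 0, with a median of -2.39, and none was called (0 higher and 9 lower at an unadjusted edgeR p under 0.05, and 0 and 2 by DESeq2). They summed to 326 and 190.0 CPM with PBS and to 15 and 37.9 at 100 µg. Of 9 adipocyte genes 1 rose, the lipase gene Lipe (2.27-fold, adjusted p = 0.042), which was called in no leave-one-out fit. Erythroid calls fell from 5 to 4 without CDN2 (100 µg) replicate 1, 2 without replicate 2 and 0 when either PBS tumor was left out.

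Genes of the inner root sheath of the hair follicle had fold changes among the largest of all and came mainly from 1 tumor. Krt71 was at 0.0221 and 0.04 CPM with PBS and 3.23 and 57.8 at 100 µg. The mean of the CDN2 tumors was 484-fold above a floor of 3 counts per PBS library, a size that rests on replicate 2. Its log2 fold change ran from 6.56 to 10.72 over the leave-one-out fits. Krt25 was at 0 and 0.02 with PBS and 1.7 and 25.5 at 100 µg, and Krt27 at 0 and 0.02 with PBS and 1.01 and 14.5 at 100 µg. Tchh, which encodes trichohyalin, was at 0.0221 and 0.0799 with PBS and 5.1 and 54.8 at 100 µg. For each of these CDN2 (100 µg) replicate 2 was far above replicate 1, although both were above PBS. Without replicate 2 the adjusted p was 0.0214 for Krt71, 0.086 for Krt25, 0.151 for Krt27 and 0.0029 for Tchh, and when either PBS tumor was left out the 3 keratins were not called, with adjusted p up to 0.204, 0.289 and 0.33. The part that blood, muscle, skin and hair follicle in the samples had in the other results was not tested.

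**Figure D4:**
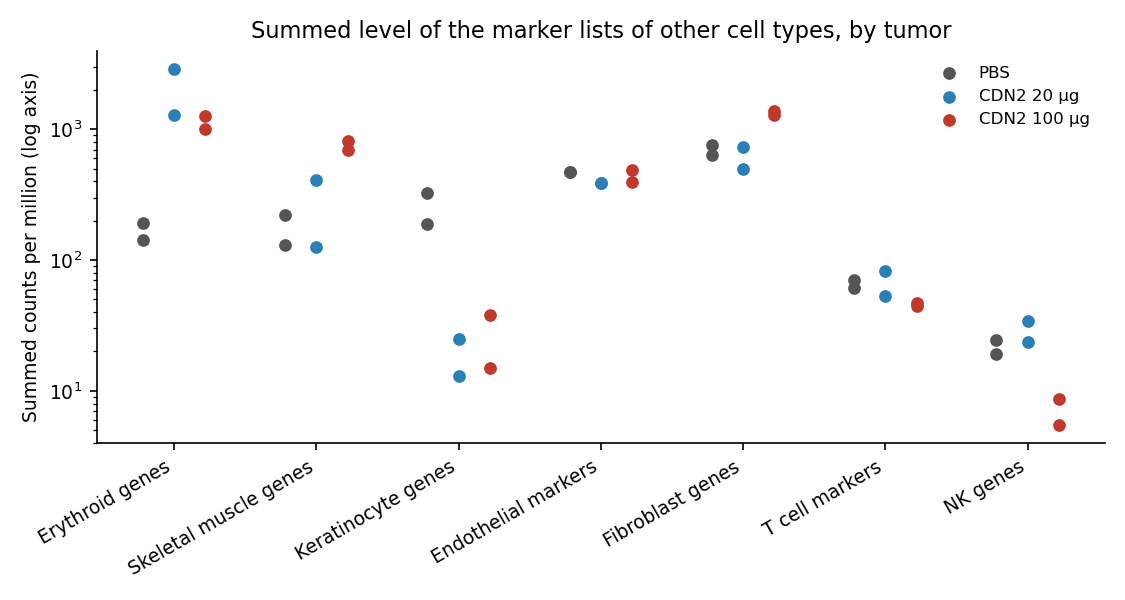
Each point is the summed level of a marker list in 1 tumor, in CPM on a log axis, for PBS (grey), CDN2 20 µg (blue) and CDN2 100 µg (red), all after 1 dose. Both CDN2 groups lie above PBS for erythroid genes and below it for keratinocyte genes, while the 100 µg tumors lie below the others for NK genes and above them for skeletal muscle and fibroblast genes.

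The 100 µg tumors were then set against the 2 tumors that had received 1 dose of 20 µg, in the same fit. Of 16927 genes 77 (0.455%) were called, 39 (0.23%) higher and 38 (0.224%) lower at 100 µg. Against PBS the 20 µg tumors had 532 called genes (3.14%), 382 (2.26%) higher and 150 (0.886%) lower. Both comparisons use the same PBS tumors, so their values are given side by side only. The count between the amounts hung on every library. It was 14, all higher, without CDN2 (100 µg) replicate 1, and 0 without CDN2 (100 µg) replicate 2, CDN2 (20 µg) replicate 1 or CDN2 (20 µg) replicate 2, where 1654, 2301 and 2238 genes had an unadjusted p under 0.05 by edgeR. DESeq2 called 398 genes with all tumors kept.

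Values of interferon-stimulated genes lay lower at 100 µg than at 20 µg, with few calls. The antiviral list had a median log2 fold change against PBS of 2.15 at 20 µg and 1.65 at 100 µg, and between the amounts 2 of its 52 members were called, both lower at 100 µg (0 higher and 22 lower at an unadjusted edgeR p under 0.05, and 0 and 9 by DESeq2), around a median log2 difference of -0.47. Of the 20 guanylate-binding proteins and immunity-related GTPases none was called by edgeR, while 15 were lower and none higher at an unadjusted p under 0.05, and DESeq2 called 12 lower. Their median log2 fold change against PBS was 1.72 at 20 µg and 0.65 at 100 µg, and the median difference was -1.47. Ifnb1 was at 14 and 54.9 CPM in the 20 µg tumors, which spanned the 100 µg tumors, with a log2 difference of 0.17 (100 µg minus 20 µg, 95% interval -1.52 to 1.86). The difference was -0.067 (-0.57 to 0.43) for Isg15, 0.26 (-0.54 to 1.06) for Cxcl10, 0.54 (-1.18 to 2.26) for Il6 and -0.39 (-1.32 to 0.54) for Cd274. None of the 5 was called, and their intervals do not exclude differences of either sign. The members of the antiviral list that were called were Apol9a, at 218 and 372 CPM at 20 µg and 36.4 and 52.7 at 100 µg (log2 difference -2.73, adjusted p = 0.0395), and Bst2 (-1.34, adjusted p = 0.0483), both chosen after their values were seen. Zcchc2, a zinc-knuckle protein, stood above 20 µg as well as above PBS, at 28.7 and 29.4 CPM with PBS, 56 and 61.3 at 20 µg and 121 and 105 at 100 µg (log2 difference 0.94, adjusted p = 0.0309), a ratio of 1.92 that is under the limit for a call.

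Some class I genes were called lower at the larger amount. Of the 23, 8 were lower at 100 µg than at 20 µg and none higher (0 higher and 17 lower at an unadjusted edgeR p under 0.05, and 0 and 15 by DESeq2), with a median log2 difference of -1.50, where the median against PBS was 0.59 at 20 µg and -0.93 at 100 µg. No gene at all was called lower in any leave-one-out fit of the amounts, nor with the ratio limit inside the test, so these 8 calls were lost each time. H2-K1 was at 1040 and 1429 CPM at 20 µg, above both PBS tumors, against 214 and 291 at 100 µg (4.89-fold lower, log2 difference -2.29, adjusted p = 0.0324). H2-D1 differed by -2.10 (adjusted p = 0.0316), Psmb8 by -3.07 (adjusted p = 0.0483) and Psmb9 by -3.10 (adjusted p = 0.0483). In the class II list H2-DMb1 was called lower (-2.98, adjusted p = 0.0446), and Ciita, at 8.18 and 11.5 CPM at 20 µg, was not (-3.69, 95% interval -5.62 to -1.76, adjusted p = 0.0817).

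The median T cell gene stood 0.26 above PBS at 20 µg and 1.18 below it at 100 µg on the log2 scale. No member was called between the amounts (1 higher and 20 lower at an unadjusted edgeR p under 0.05, and 0 and 13 by DESeq2). Cd3e differed by -3.48 with an adjusted p of 0.0654 and Cd8a by -3.92 with 0.0782. Cd8a was at 1.98 and 2.24 CPM at 20 µg, with both tumors above both 100 µg tumors. Of the NK and cytotoxic genes Nkg7 (1.7 and 2.74 CPM at 20 µg, log2 difference -4.13, adjusted p = 0.0446) and Prf1 (3.7 and 3.16 CPM, -3.10, adjusted p = 0.0413) were called lower at 100 µg. Ifng was at 1.68 and 11.9 CPM at 20 µg and Cxcl9 at 140.3 and 207, with differences of -1.99 (adjusted p = 0.265) and -0.98 (adjusted p = 0.208).

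Many endothelial markers were higher at 100 µg than at 20 µg. They gave 8 of 23 higher, none lower (edgeR), with a median log2 difference of 1.33; against PBS 11 of the 23 were called lower at 20 µg and none at 100 µg. Pecam1 was at 11.4 and 13.7 CPM at 20 µg, below every PBS and 100 µg tumor (log2 difference 1.56, 95% interval 1.00 to 2.11, adjusted p = 0.0316). Col15a1 and Col4a2, collagens of vessel basement membranes, differed by 1.53 (adjusted p = 0.0137) and 1.18 (adjusted p = 0.0272). Fgd5, a guanine nucleotide exchange factor of endothelium, differed by 2.48 (adjusted p = 0.0175), Adgrf5, an adhesion receptor, by 1.71 (adjusted p = 0.0207) and Pxdn, the peroxidase that cross-links collagen IV, by 1.78 (adjusted p = 0.0175). Tchh, the hair follicle gene described above, was at 0.05 and 0.028 CPM at 20 µg (log2 difference 9.46, adjusted p = 0.0207). Lower at 100 µg with small p were Ptgds, a prostaglandin D synthase (-1.15, adjusted p = 0.0309), Trafd1, a negative regulator of innate signalling (-1.66, adjusted p = 0.0309), Haghl (-1.11, adjusted p = 0.0385), Tmco4 (-1.22, adjusted p = 0.0309) and Phlda3, a p53 target (-1.14, adjusted p = 0.0309). At 20 µg the erythroid list summed to 1283 and 2921 CPM, against 1013 and 1275 at 100 µg, and the skeletal muscle list to 126 and 409.9; their part in the endothelial difference was not tested.

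**Figure D5:**
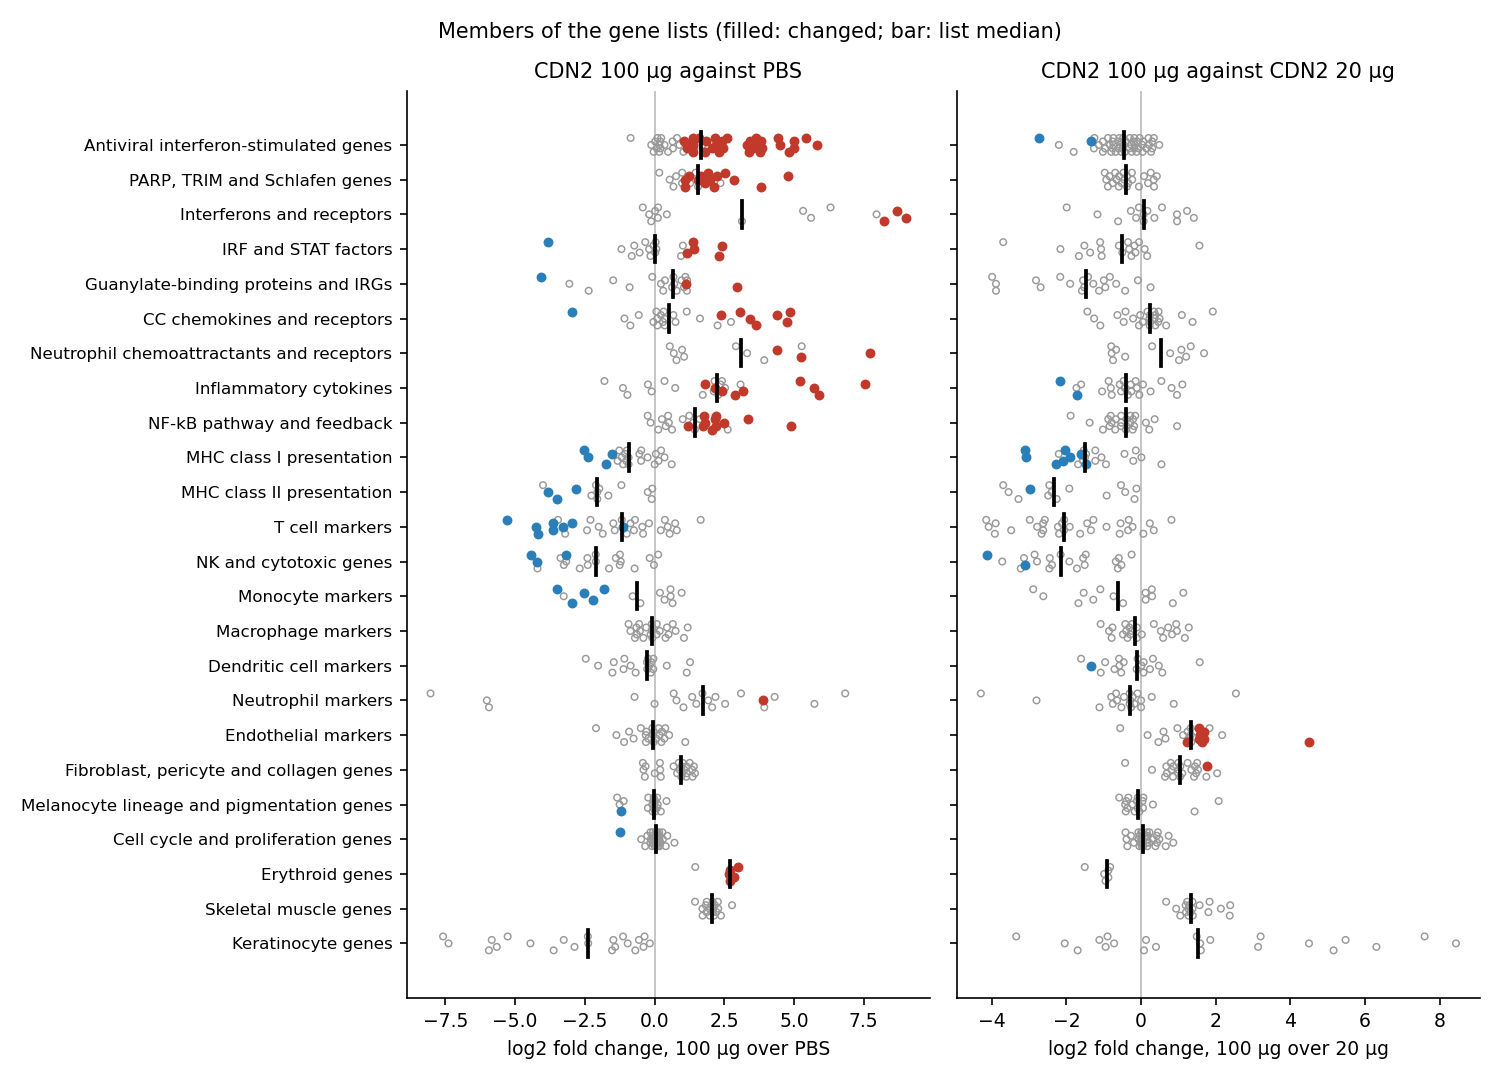
Each point is 1 gene of the list named on the left, with the log2 fold change of CDN2 (100 µg) over PBS in the left panel and over CDN2 (20 µg) in the right panel; filled points were called changed and black bars are list medians. Medians of the antiviral interferon-stimulated, chemokine, cytokine and NF-κB lists lie to the right of 0 in the left panel and nearer to 0 in the right panel. That of the guanylate-binding proteins and immunity-related GTPases is 0.65 in the left panel and -1.47 in the right panel. Medians of the MHC, T cell and NK lists lie to the left in both, and that of endothelial markers lies near 0 in the left panel and to the right in the right panel.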

How the data were processed

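RNA was sequenced from 18 B16F10 tumors (Illumina HiSeq), and 4 of them make up the comparison: CDN2 (100 µg) against PBS, 1 dose, 2 tumors each. Groups came from the sample titles. The authors deposited expected counts per gene, estimated with RSEM on mm10 and not normalized. Of all gene values in a sample, zeros included, 8.75% to 12.7% were not whole, and they were rounded. How reads of near-identical genes were divided follows RSEM's model. The files' gene IDs were paired with symbols by the reference annotation.

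Counts were filtered (filterByExpr, minimum count 10, minimum total 15), scaled by TMM and fitted with edgeR 4.0.16 (R 4.3.3) over 16 tumors in 8 groups, which share 1 estimate of the spread; 2 tumors whose labels give no CDN2 amount were left out. Each contrast used the quasi-likelihood test with Benjamini-Hochberg adjustment over 16927 genes. A gene was called at an adjusted p under 0.05 with a ratio over 2. With 2 tumors a group an exact permutation test cannot go below p = 0.333, so none was run. Counting error sets the floor of 3 counts per library. On simulated counts 182 of 200 genes changed 4-fold were called for this contrast, with 7 false calls among 16464 genes. The 200 were drawn only from genes with higher mean counts, and all counts followed the fitted model. The share recovered therefore does not cover genes near the counting floor.

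Named genes are the 12 higher and 12 lower with the smallest p, the 5 largest changes each way, and up to 4 called genes each way per list with the smallest p, with a fixed set of markers and the 6 leading genes each way of the contrast between amounts. A gene that the rule names is not reported here. Further genes are said to be chosen after their values were seen. The members, gene lists and naming rule were chosen with earlier results of these data known. Alternatives were DESeq2 1.42.0, RLE factors, no filter, other sets of tumors, other thresholds, a replicate block and each tumor left out. In a fit without 1 tumor, the lone tumor of its group is assumed to vary like the other groups. Promoter windows come from RefSeq (GRCm38.p6).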

Additional observations from a re-analysis of the deposited data

How the results depend on the processing

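The number of genes called between CDN2 (100 µg) and PBS, 413, stayed within 1.5 times with RLE factors, no limit on the ratio, all 18 tumors, the replicate block (394, with 295 higher and 99 lower) and PBS tumors of both dose numbers pooled (600, with 506 higher and 94 lower, so the higher share was 84.3%). It was 660 with DESeq2, 1178 with no filter on low counts, 1352 with only the 4 tumors fitted and 110 with the ratio limit inside the test (105 higher and 5 lower, a higher share of 95.5%), and ranged from 86 to 179 with 1 tumor left out. Of the 308 higher and 105 lower genes, 294 and 50 were also called with PBS pooled and 306 and 104 with DESeq2. Between the amounts the count of 77 became 398 with DESeq2, 800 with no filter, 335 with only the 4 tumors fitted, 0 with the ratio limit inside the test (edgeR's glmTreat; 450 genes at an unadjusted p under 0.05), 48 with the replicate block (68.8% higher), and 0 to 14 with 1 tumor left out. Deviations of same-numbered tumors from their group means correlated over all genes at 0.0038 (CDN2 100 µg and PBS) and 0.0589 (the 2 amounts). Whether same-numbered tumors share more than a number was not tested further.

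With groups that did not overlap, leaving out 1 tumor had little room to reverse a call. No called gene changed sign, of 164 genes followed over the alternatives. Calls were lost by 1 of them with DESeq2 (Krt81, adjusted p = 0.0718), 3 with RLE factors (Gbp2b, Pdgfb and Selp, 0.0504 to 0.0567), 13 with the replicate block, 36 with PBS pooled and 84 with the ratio limit inside the test. Among all 413, Gm45140 changed sign with PBS pooled (log2 fold change 1.03 against -0.29). Log2 fold changes of uncalled genes that did were, with PBS pooled, 0.036 for Cd4, 0.062 for Batf3, 0.11 for Adgre1, -0.062 for Mlana and -0.020 for Pmel. With 1 tumor left out they ranged from -1.03 to 1.15 for Ifng, -0.56 to 0.19 for Batf3, -0.415 to 0.18 for Adgre1, -0.065 to 0.096 for Mlana, -0.075 to 0.056 for Tyr, -0.021 to 0.47 for Pecam1 and -0.32 to 0.057 for Fgd5. Tyr was also at 0.0084 with DESeq2, 0.0095 with RLE factors and 0.0030 with only the 4 tumors fitted. The cause of these shifts was not tested. Fewer tumors in a fit also change which genes pass the filter. Depth limits what can be said of genes with 3 counts or fewer in each library of a group, among them 9 of 21 neutrophil, 8 of 21 NK, 7 of 15 interferon and 2 of 31 T cell genes.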
